A study of Mus musculus with 10 samples.

Results

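White adipose tissue was described through the 2 arrays whose source label names it, 1 on each of 2 Affymetrix chips called A and B, out of 10 arrays in all. The other 8 arrays held pancreas, muscle, liver and hypothalamus, with 1 array per tissue and chip. All tissues came from adult female C57BL/6 mice, an inbred strain, and no further allele, treatment or age is given. The labels do not say which fat depot or muscle was taken, how many animals were used, whether RNA was pooled, or whether both chips received the same RNA. The title of the adipose arrays carries the word preconfluent, a term for cultured cells, while their source label names white adipose tissue. The 4 genes that mark fat cells here, Adipoq, Retn, Fabp4 and Lipe, were each among the 20 brightest probe sets of the chip A array, and are given below with their values in every tissue. Of 30 cell division genes measured 4 were above noise in white adipose, beside 34.3% of all named genes. These were Hmmr at 1461 and Ccne1 at 1189 on chip B and Cks1b at 470 and Cdk1 at 424 on chip A, none of them above the bounds of all other arrays and highest in white adipose, while Mki67 at 347 and Pcna at 575 on chip B were below noise. Of 34 genes of fibroblasts and preadipocytes 18 were above noise and 9 highest in white adipose, while Dlk1, a preadipocyte marker, read 36 on chip A, below noise. Whether these arrays hold tissue or cultured cells cannot be settled from the labels, and the source label is followed here.

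White adipose tissue stores triglyceride in large lipid droplets inside fat cells and releases it as fatty acids when energy is needed. Fat cells also secrete hormones, and they lie in a collagen-rich matrix with fibroblast-like progenitors, vessels, macrophages and other immune cells. The arrays measured messenger RNA of the whole tissue, so fewer cells of a type and less RNA per cell cannot be told apart.

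A deposited intensity is the brightness of a probe set, a group of short oligonucleotides chosen for a message, on a linear scale. Many intensities are below 0, and the size of the 1st percentile of an array was taken as its noise bound. The white adipose bound came to 388.24 on chip A and 914.34 on chip B. On chip A, 2148 of 6523 probe sets were above it (32.9%), and on chip B 1095 of 6534 (16.8%). The bounds of the other arrays lay between 259.56 for hypothalamus and 1165.46 for pancreas on chip A, and between 654.36 and 2603.09 for the same tissues on chip B. The pancreas and muscle arrays therefore set the limit of many comparisons. The ratio of the 3 prime to the 5 prime actin control, a sign of RNA quality, was 1.56 and 1.51 in white adipose and 1.34 to 4.74 elsewhere, the highest being pancreas on chip A, and its part in the results was not tested. Of the probe sets, 15.1% on chip A and 69.4% on chip B have no gene name here, and the named ones cover 6137 genes. With 1 array per tissue and chip there is no error between animals and no test, and every fold below describes these arrays alone.

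On chip A the 10 brightest probe sets held 3.88% of all positive signal, the 100 brightest 25.5% and the 500 brightest 58.3%. The 10 brightest held 11.9% in muscle, 7.74% in pancreas, 4.03% in liver and 2.86% in hypothalamus, so white adipose stood next to liver and above hypothalamus. Without the probe sets marked as able to match more than 1 transcript, the 10 brightest of white adipose held 15% on chip A and 24.4% on chip B. These shares are of the 2066 and 1075 probe sets left, of which 10 are a larger part, so they do not compare with those of the full chips. They were not computed for the other tissues. Chip B gave the same order of the last 3 tissues, with 5.04% in white adipose, 5.76% in liver and 3.49% in hypothalamus, while muscle and pancreas each had 15.9%. The brightest 343 probe sets of chip A and 232 of chip B carried 50% of the positive signal of white adipose. Positive signal includes values within the noise, to an extent that differs between arrays. The part above the bound on chip A was 90.1% in white adipose, 93.2% in liver, 94.1% in hypothalamus, 77.6% in muscle and 76.3% in pancreas. On chip B it was 83.0% in white adipose and between 71.7% in pancreas and 87.4% in hypothalamus. A message read by several probe sets counts several times in a share. Brightness depends on the probes as well as on the message, so ranks are of brightness and not of abundance.

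**Figure D1:**
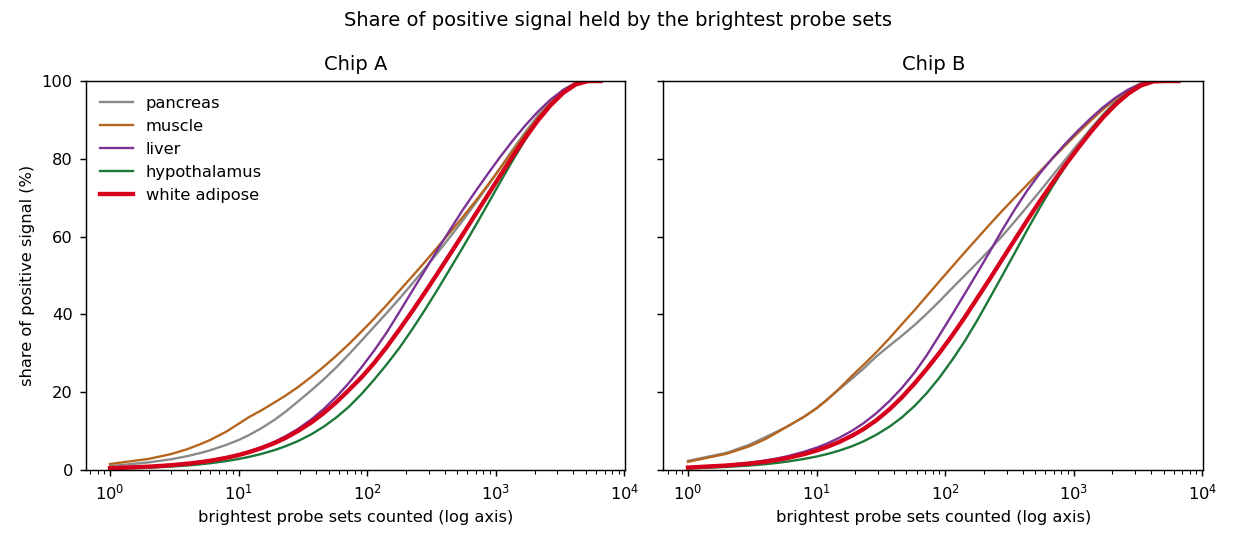
Share of positive signal, in percent, held by the brightest probe sets of each array, against the number of probe sets counted on a log axis. The white adipose curve, drawn thicker, lies between those of liver and hypothalamus at the 10 and the 100 brightest probe sets, and at 100 stands at 25.5% on chip A and 32.1% on chip B.

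The brightest named probe sets mixed messages of all cells with messages of fat. Rpl41, a ribosomal protein gene, was first on chip A with 22072, or 0.487% of positive signal. Fabp4, the fatty acid carrier of fat cells, followed at rank 3 with 17413, and Lipe, the hormone-sensitive lipase that splits stored fat, at rank 4 with 17327. Slc25a1, which carries citrate out of mitochondria for fatty acid synthesis, was at rank 5, and Cyp2e1, a cytochrome P450 that oxidises alcohol, at rank 6. Adipoq, the hormone adiponectin, was at rank 8. Of these, Cyp2e1 was as bright in liver, at 16388 against 17100 in white adipose, and read 1108 in muscle, 20 in pancreas and -124 in hypothalamus. Further down the 20 brightest named probe sets were the elongation factor Eef1a1, the interferon-induced gene Ifi27, the ATP synthase subunit Atp5b, the actin-severing protein Gsn, the carbonic anhydrase Car3, the synuclein Sncg and the desaturase Scd1.

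On chip B the brightest probe set has no gene name here and read 35407 in white adipose and 40325 in liver. The brightest named one was Lgals1, the galectin of connective tissue cells, with 28236. Next came Dgat2, which makes triglyceride in its last step, with 26273, the glycolytic enzyme Aldoa with 26179 and Eef1a1 with 25993. Gsn, Gpd1, which supplies the glycerol backbone of fat, Fasn, the fatty acid synthase, and Hp, the haemoglobin-binding plasma protein haptoglobin, lay between 22496 and 22795. Col3a1, a fibrillar collagen, read 22210, and Dcn, a collagen-binding proteoglycan, 21244. Muscle was brighter than white adipose for Aldoa, with 149147, and for Dcn, with 23865.

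Of the 100 brightest probe sets of white adipose on chip A, 39 were also among the 100 brightest of pancreas, 36 of hypothalamus, 35 of muscle and 35 of liver. On chip B the counts were 35 for pancreas, 40 for hypothalamus, 31 for muscle and 43 for liver. Those among the 100 brightest of all 5 tissues numbered 7 on chip A and 9 on chip B, and 30 and 31 were among the 100 brightest of white adipose alone. The other tissues had more of their own, between 44 and 60 on chip A and between 43 and 60 on chip B. Of the 100 brightest, 54 on chip A and 69 on chip B carry a suffix _f, _r, _i or _g, against 13.2% and 27.2% of all probe sets. Among these suffixes, _f marks the family design, which can bind messages of related genes.

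A probe set was called higher where white adipose was above its bound and at least 2 times as bright as every other tissue, each raised to its bound where it lay below. This held for 66 probe sets of chip A, 1.01% of all, and for 40 of chip B, 0.612% of all. Of them 20 (0.307% of all) and 12 (0.184%) were at least 4-fold higher. A bound rather than a measured value set the fold of 36 of the 66 and 18 of the 40, and such folds are given as "at least". Without the pancreas and muscle arrays, whose bounds are the widest, the counts were 268 and 165. Most of the calls come from probe sets whose name marks them as able to match more than 1 transcript, and of the 2066 and 1075 without such a mark 5 and 0 were called. White adipose was the highest of the 5 tissues, above every bound, for 252 probe sets of chip A (3.86%) and 158 of chip B (2.42%). Taken as 1 probe set per gene, 71 of 6137 genes were called higher (1.16%) and 264 were highest (4.3%). Of 76 genes called by any probe set, 23 had several probe sets. In 19 of these 23 each probe set had its largest value in white adipose. Col1a1 was the exception above noise, with 1 of 3 probe sets reading 1387 in white adipose, 1713 in muscle and 1709 in pancreas.

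The 4 marker genes had the largest folds of chip A as computed. Folds set by a bound are lower limits, so other genes could exceed them. Fabp4 read 17413 in white adipose, 894 in muscle, 167 in pancreas, 68 in liver and -18 in hypothalamus, at least 14.9-fold higher. Lipe read 17327, against 708 in muscle, 586 in pancreas, 488 in liver and 283 in hypothalamus, also at least 14.9-fold. Adipoq read 16779, against 986 in muscle and 168, 120 and 67 in pancreas, liver and hypothalamus, at least 14.4-fold. None of these 3 was above noise in pancreas or muscle, and Lipe alone was above it in liver and hypothalamus. Retn, the hormone resistin, read 15028 in white adipose, 1378 in pancreas, 823 in muscle, 214 in hypothalamus and 165 in liver, which made it 10.9-fold higher than pancreas. The Fabp4 probe set has the family design, so that messages of other fatty acid carriers could bind to it too.

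**Figure D2:**
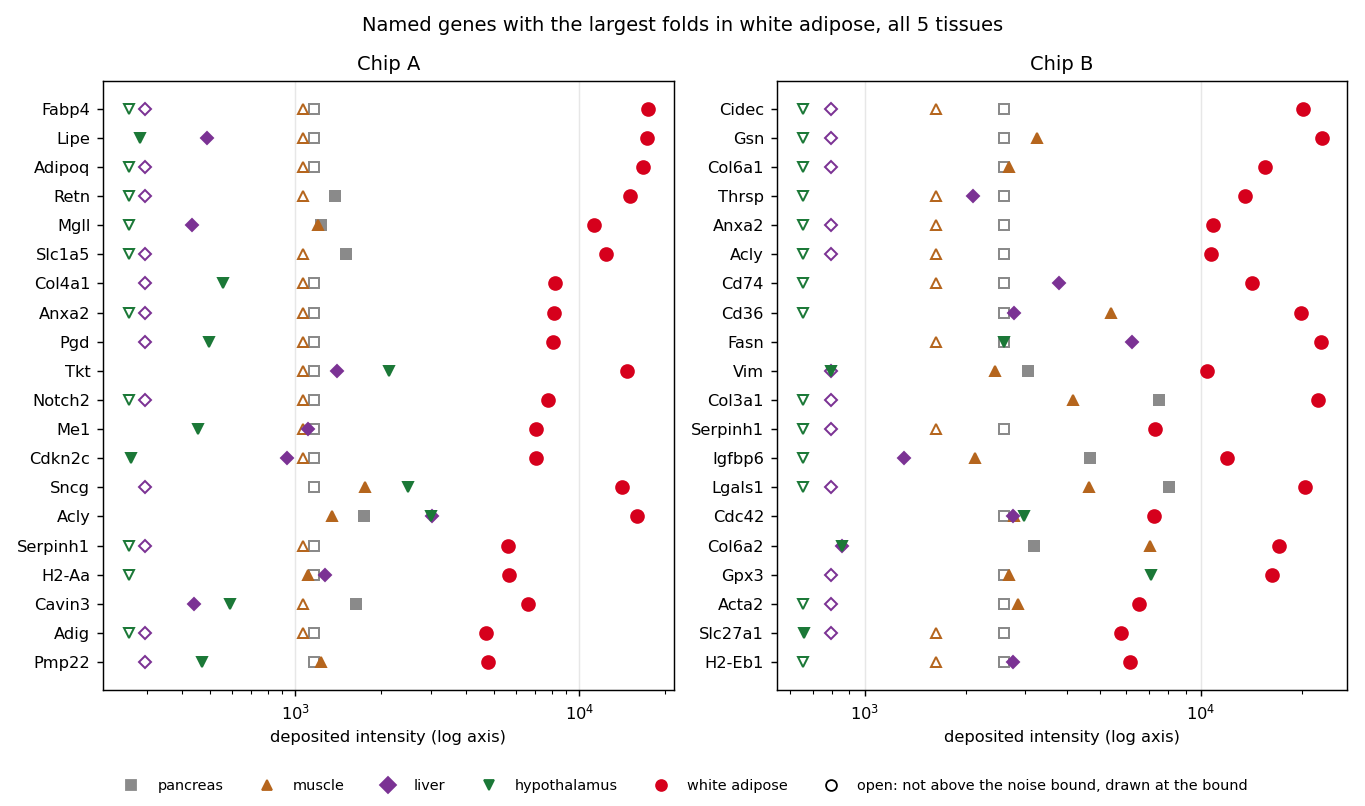
Deposited intensity on a log axis in each of the 5 tissues for the named genes with the largest folds called higher, 20 genes a chip, with 1 array behind each point. Open symbols are values not above the noise bound of their array and are drawn at that bound. White adipose lies to the right of every other tissue for each gene shown, from Fabp4 at 17413 down to Pmp22 at 4779 on chip A.

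Among fat cell hormones, 9 genes were measured and 8 were above noise in white adipose, 4 of which were called higher: Adipoq, Retn, Lep and Ccdc80. Lep, the satiety hormone leptin, read 2857 in white adipose and between -92 and 15 in the other 4 tissues, at least 2.45-fold higher. Only white adipose was above noise for it, and the small fold reflects the pancreas bound that it is set against. Rbp4, which carries retinol in blood, read 7425 but was higher in liver with 18609. Nnat, neuronatin, read 5177 and was higher in hypothalamus with 7749, while the other 3 tissues were below 0. The promoters of Adipoq and Lep are shown because these hormone messages marked the tissue, from 250 bases before to 50 after the annotated start. They are RefSeq sequences of the mouse assembly GRCm38.p6, at chr16:23146286-23146585 on the plus strand for Adipoq and chr6:29059971-29060270 on the plus strand for Lep. Capitals mark CCAAT, the core of the CCAAT box, on either strand in Adipoq. In Lep they mark TTNNGCAA on either strand, a short form of the motif of C/EBP factors, which drive fat cell genes. The Adipoq window has no TTNNGCAA match, and the Lep window no CCAAT match.
Adipoq: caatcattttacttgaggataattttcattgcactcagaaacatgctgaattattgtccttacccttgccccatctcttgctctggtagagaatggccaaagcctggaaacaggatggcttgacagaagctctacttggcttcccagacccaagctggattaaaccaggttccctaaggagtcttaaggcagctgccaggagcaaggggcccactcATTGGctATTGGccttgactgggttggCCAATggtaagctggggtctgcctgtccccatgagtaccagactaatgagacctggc
Lep: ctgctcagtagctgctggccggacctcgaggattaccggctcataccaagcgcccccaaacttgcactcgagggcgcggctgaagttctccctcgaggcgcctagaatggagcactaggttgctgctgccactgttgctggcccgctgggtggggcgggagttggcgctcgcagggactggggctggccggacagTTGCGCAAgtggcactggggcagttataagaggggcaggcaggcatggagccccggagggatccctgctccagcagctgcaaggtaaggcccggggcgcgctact
The Lep motif is the palindrome TTGCGCAA and begins 55 bases before the start. The palindrome is in 0.183% of 32851 promoter windows of this length, and in 1 of 88 windows of the genes called higher, that of Lep. TTNNGCAA was in 10.8% of all windows and in 7 of the 88 (7.95%), and CCAAT in 37.4% of all and in 40 of the 88 (45.5%). The GC box GGGCGG was in 35.7% of all windows and 52 of the 88 (59.1%), the TATA box TATAAA in 13.6% and 6 (6.82%), and the PPAR motif DR1 in 0.0396% and none. Both strands were searched. A match of letters is a description and not a binding site.

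Genes of the lipid droplet and of fat release stood out together. Of 10 measured, 9 were above noise, and 8 were called higher, with a median log2 difference from the other 4 tissues of 2.96. Over all 6137 genes 1.16% were called higher and the median log2 difference was -0.52, since values raised to the bounds are largest in pancreas and muscle. Cidec, which fuses lipid droplets, read 20023 on chip B, against 758 in pancreas, 166 in liver, 62 in hypothalamus and -217 in muscle, at least 7.69-fold. Mgll, which takes the last fatty acid from glycerol, read 11289 on chip A, 9.20-fold above the 1227 of pancreas, with 1202 in muscle, 433 in liver and 196 in hypothalamus. Adig, adipogenin, read 4678 and was below 0 in all other tissues, at least 4.01-fold. The caveolar coat proteins Cavin1 and Cavin2, the seipin gene Bscl2 and G0s2, an inhibitor of fat breakdown, were the remaining members called higher besides Lipe. Cavin1 read 9443 and was 2.94-fold above muscle, and Cavin3, a further coat protein of caveolae, read 6570 and was 4.03-fold above pancreas. Plin2, a droplet coat protein of many tissues, was above noise at 4950 but higher in liver with 8648. Cidea, a relative of Cidec known from brown fat, read 184, below noise. Cidec has a promoter window with a TTNNGCAA match, shown beside that of Lep with the same marking, at chr6:113434715-113435014 on the minus strand, and its match begins 198 bases before the start. The other Cidec window, at chr6:113435711-113436010, holds none of TTNNGCAA or CCAAT.
Cidec: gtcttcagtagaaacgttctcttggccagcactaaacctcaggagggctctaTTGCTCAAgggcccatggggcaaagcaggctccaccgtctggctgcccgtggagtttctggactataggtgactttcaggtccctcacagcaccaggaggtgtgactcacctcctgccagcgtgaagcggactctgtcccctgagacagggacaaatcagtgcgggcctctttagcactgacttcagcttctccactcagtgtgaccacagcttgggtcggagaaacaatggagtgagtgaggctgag

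Uptake and binding of fatty acids involved 8 measured genes, all above noise, of which 5 were highest in white adipose and 3 called higher: Fabp4, Cd36 and Fabp5. Cd36, a fatty acid receptor, read 19803 in white adipose on chip B, 5414 in muscle, 2772 in liver, 52 in pancreas and -9 in hypothalamus, 3.66-fold above muscle. Its probe set on chip A gave 2.74-fold over the same tissue. Fabp5, a carrier also known from skin and brain, read 7865 against 3535 in hypothalamus, 2.22-fold. Lpl, the lipase that frees fatty acids from lipoproteins, went the other way, with 10246 in white adipose and 19539 in muscle. Dbi, which binds acyl-CoA, read 20403 and 18189 in white adipose and liver, which differ by a factor of 1.12. Slc27a1, a fatty acid transporter, was called higher by its chip B probe set (5799, at least 2.23-fold) and was 1.20-fold above pancreas by the one on chip A.

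Fatty acid and triglyceride synthesis was the largest group of fat genes called. Of 19 measured, 18 were above noise, 14 were highest in white adipose and 10 were called higher. Enzymes that feed it with NADPH and acetyl-CoA were among those called. Tkt, an enzyme of the pentose phosphate pathway, which makes NADPH, read 14676, against 2134 in hypothalamus, 1397 in liver, 290 in pancreas and -728 in muscle, 6.88-fold. Pgd, of the same pathway, read 8063 and at most 496 elsewhere, at least 6.92-fold. Me1, malic enzyme, which also makes NADPH, read 7042, with liver next at 1110, at least 6.04-fold. Acly, which turns citrate into acetyl-CoA, read 15907 on chip A, 3027 in liver, 3005 in hypothalamus, 1742 in pancreas and 1349 in muscle, 5.25-fold, and on chip B at least 4.12-fold. White adipose lay above all other tissues for each of these 4 genes, with liver the next for Me1 and Acly and hypothalamus the next for Tkt and Pgd.

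Genes of the chain itself and of its control included several on chip B, where bounds are wider. Fasn read 22662 in white adipose, 6237 in liver, 2594 in hypothalamus, 899 in muscle and 507 in pancreas, 3.63-fold above liver. Thrsp, a regulator of fat synthesis, read 13469 against 2100 in liver, at least 5.17-fold. Dgat2 read 26273 and 17184 in liver, 1.53-fold, and Gpd1 22785 with 14250 in liver and 14144 in muscle, 1.60-fold. Both were highest in white adipose but not called. Scd1 read 13861 and was higher in liver with 18401. Taldo1, Pcx, Dgat1 and Elovl6 completed the 10, with folds of at least 2.02 to at least 3.35. Pcx, pyruvate carboxylase, which refills the citrate cycle, read 3807 against 937 in liver.

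Of 12 transcription factor genes, 6 were above noise, 1 was highest and none was called higher. Pparg, the receptor that drives fat cell formation, read 1667 in white adipose and between -163 and -6 elsewhere, at least 1.43-fold, and was above noise in white adipose only. Cebpa, a partner of Pparg, read 2214, against 1324 in liver and below 0 in the other 3 tissues. It had no fold because the pancreas bound of 2603.09 on chip B exceeds it. Of 9 genes of insulin response, 4 were above noise and none was highest. Slc2a4, the insulin-regulated glucose transporter GLUT4, read 3629 in white adipose and 4886 in muscle on the probe set that stands for it, and 4779 against 2320 on the other, of stricter design.

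Some bright messages of white adipose were shared with liver. Both tissues were at least 2 times the other 3 for 36 probe sets of chip A (0.552% of all) and 18 of chip B (0.275%). The same count was 13 (0.199%) and 4 (0.0612%) with muscle. It was 7 (0.107%) and 11 (0.168%) with hypothalamus, and 7 (0.107%) and 4 (0.0612%) with pancreas. Cyp2e1 was the clearest case, with both tissues at least 14.1-fold above the other 3. Hp read 22496 in white adipose and 27927 in liver, against 1594, 236 and -9 in pancreas, muscle and hypothalamus. B2m, the small chain of class I antigen-presenting molecules, read 20653 and 24659, and at most 1596 elsewhere. Hadh, of fatty acid oxidation, read 6491 and 7083. Of 17 secreted proteins of fat and liver, 13 were above noise, 4 were highest in white adipose and 1, Gpx3, a plasma glutathione peroxidase, was called higher, with 16292 against 7092 in hypothalamus on chip B. Serping1, the C1 inhibitor of complement, read 8076 with 14264 in liver. Apoe, the apolipoprotein E gene, was shared with hypothalamus too, with 16119 in white adipose, 18329 in liver and 11021 in hypothalamus on chip B, and 11121, 10335 and 8713 on chip A. Of 19 hepatocyte genes measured none was above noise in white adipose, with the apolipoprotein Apoa2 at 540 against 25995 in liver. This covers the listed genes only. Other messages brighter in liver were above noise in white adipose, such as Adh1 at 4315 against 18146 and Gsta3 at 9659 against 31028.

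The matrix was the largest non-fat group. Of 46 extracellular matrix genes measured, 38 were above noise, 24 were highest in white adipose and 11 were called higher, with a median log2 difference of 1.27. Col4a1, a chain of basement membrane collagen, read 8206, with 967 in muscle, 558 in hypothalamus, 445 in pancreas and 284 in liver, at least 7.04-fold. Its partner chain Col4a2 read 7030 and 2135 in muscle, 3.29-fold. Col6a1, a chain of the microfibrillar collagen around fat cells, read 15529 on chip B, 2678 in muscle, 709 in pancreas, 412 in hypothalamus and 143 in liver, 5.80-fold, and Col6a2 16999 with 7030 in muscle, 2.42-fold. Serpinh1, a chaperone that folds collagen, read 5595 on chip A, at least 4.80-fold higher, and 7304 on chip B, at least 2.81-fold. Col3a1 read 22210 on chip B with 7484 in pancreas, 2.97-fold. Its probe set on chip A read 519 in white adipose, below the pancreas bound, and was not called. Sparc, a matrix protein, read 19820 with 14091 in hypothalamus, 1.41-fold, highest but not called. Matrix genes carried 1.47% of positive signal on chip A and 3.47% on chip B, with the next highest tissues at 0.524% (pancreas) and 0.894% (muscle).

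Genes of fibroblasts and preadipocytes were mixed. Of 34 measured, 18 were above noise, 9 highest and 7 called higher, while the median log2 difference was -0.42. A chip B probe set with all 5 tissues raised to their bounds has this same value. The median is thus set by the bounds and does not compare these genes with all genes. Those called were cytoskeletal and binding proteins found in many connective tissue cells. Gsn read 22795 on chip B with 3243 in muscle, 7.03-fold, Anxa2, a membrane-binding annexin, 10849 with 962 in pancreas, at least 4.17-fold, and Vim, the intermediate filament of mesenchymal cells, 10408 with 3058 in pancreas, 3.40-fold. Lgals1, Igfbp6 and Igfbp7, the last 2 being binders of growth factors, were 2.44, 2.56 and 3.05-fold above the next tissue. Anxa1, an annexin, and Gas1, a growth arrest gene, were highest but not called, with 5162 and 4140 on chip B, at least 1.98-fold and 1.59-fold. Of the 16 members below noise, Pdgfra read 266 and Dpp4 68 on chip A.

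Macrophage genes were present at moderate levels. Of 24 measured, 18 were above noise and 8 were highest in white adipose, with none called higher by the probe set that stands for it, though 4 or 5 were under each other scaling of the arrays. Lyz2, lysozyme, read 10171, against 7266 in pancreas. Ctsb, a lysosomal protease of many cells, read 10665, 1.66-fold above liver. The complement genes C1qb and C1qc, made by macrophages, read 4761 and 4478 on chip B, at least 1.83-fold and 1.72-fold, and a chip A probe set of C1qb was called higher with 3548 and 2.79-fold. Antigen presentation gave 14 measured genes, 8 above noise, 6 highest and 2 called higher, Cd74 and H2-Eb1. The H2-Eb1 probe set called read 6150 with 2763 in liver. Its other one read 1438 with 1273 in pancreas and 1262 in muscle, and was not called. Cd74, the chaperone of class II molecules, read 14145 with 3784 in liver, 1339 in pancreas, 373 in muscle and 13 in hypothalamus, 3.74-fold. H2-Aa, a class II chain, was highest in all 5 of its probe sets and 4.43-fold above liver in the brightest of chip A, while the probe set that stands for it, on chip B, was not called.

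Markers of other cells that a fat pad can hold differed by type, beside the 34.3% of all genes above noise. Lymphocyte genes gave 2 above noise of 21 measured, with Ighm, the heavy chain of IgM, at 9847 on chip B against 8450 in pancreas. Smooth muscle and pericyte genes gave 10 of 14 above noise, with Acta2 at 6553 against 2861 in muscle and Tagln at 2479 called higher. Endothelial genes gave 11 of 22 above noise and 3 highest, with Eng, an endothelial receptor, at 7206 and 1.73-fold above liver. Of 16 genes of mammary epithelium, which lies in fat pads of female mice, none was above noise. Mesothelium gave 4 of 10 above noise, led by Upk3b at 2573 with 2599 in pancreas. Pancreatic acinar genes gave 2 of 15 above noise, with Cela1 at 1438 against 86505 in pancreas, and skeletal muscle genes 3 of 16, with Ckm at 2291 against 158551 in muscle. Ucp1, the uncoupling protein that marks brown fat, read 120, below noise, as did all but 1 of 6 brown fat genes. Of 8 mast cell genes 2 were above noise, of 22 neuron genes 1, of 10 nerve and Schwann cell genes 1, Pmp22, and of 5 erythrocyte genes 3.

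**Figure D3:**
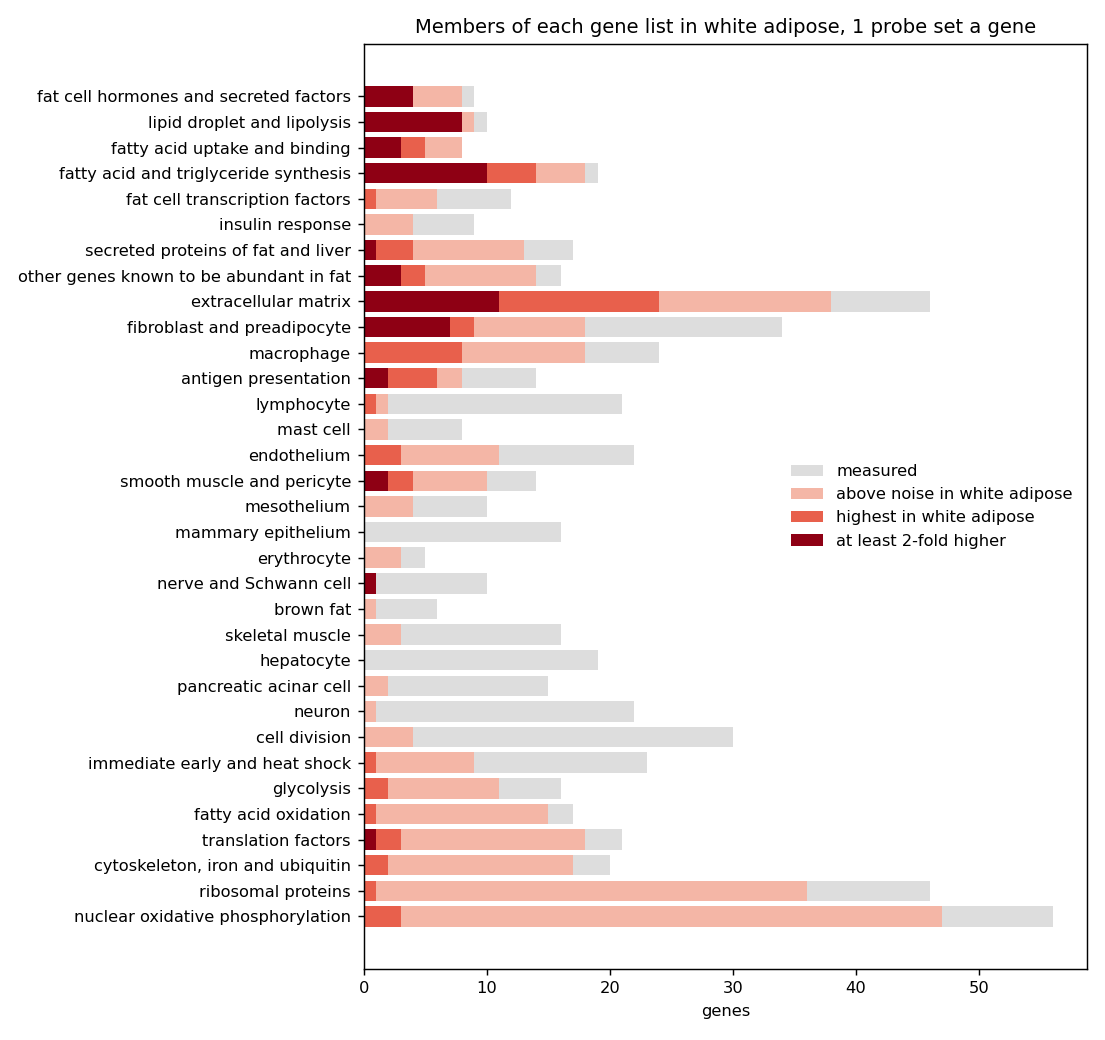
Number of genes of each of 33 lists, on a linear axis, that were measured, above noise in white adipose, highest there, and at least 2-fold higher there than in each other tissue, with 1 probe set a gene. Bars of genes at least 2-fold higher are longest for extracellular matrix (11), fatty acid and triglyceride synthesis (10) and lipid droplet and lipolysis (8), and absent for hepatocyte, acinar and skeletal muscle genes.

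A further list of 16 genes known to be abundant in fat gave 14 above noise, 5 highest and 3 called higher, Sncg, Gpx3 and Acp5, the tartrate-resistant phosphatase. Added to those for hormones, droplets, uptake and synthesis, it makes 5 fat cell lists, of whose genes 62 were measured, 57 were above noise, 36 were highest in white adipose and 28 were called higher (45.2%, beside 1.16% of all genes). The fat cell transcription factors and the insulin response genes, with none of 12 and none of 9 called, are not among the 5. On chip A the 5 fat cell lists held 7.77% of positive signal in white adipose, 4.06% in liver, 1.54% in muscle, 1.25% in hypothalamus and 0.888% in pancreas. On chip B the shares were 3.98% in white adipose, 2.08% in liver, 0.544% in hypothalamus, 0.499% in muscle and 0.139% in pancreas. Without the probe sets marked as able to match more than 1 transcript, the shares in white adipose were 4.11% and 0%. On chip B the lists had 17 probe sets before, and none with a value above 0 was left among the 1075 kept. The 0% thus gives no measure of fat messages on chip B. Of the 5 lists, that of other genes abundant in fat held more in liver, at 2.42% of chip A and 0.94% of chip B, while white adipose had 2.13% and 0.679%. Multiplying an array by a constant leaves these shares unchanged, and they were not computed after quantile normalization. The lists were written from knowledge of fat and with earlier results of these arrays known, so their direction is no independent evidence. Of 46 ribosomal protein genes 36 were above noise and 1 was highest, and of 20 genes of cytoskeleton, iron and ubiquitin 17 and 2. The ribosomal protein genes held 4.56% of the signal of white adipose on chip A, with 3.09% to 7.16% in the other tissues, and oxidative phosphorylation 3.98%, with 2.01% to 6.38%.

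**Figure D4:**
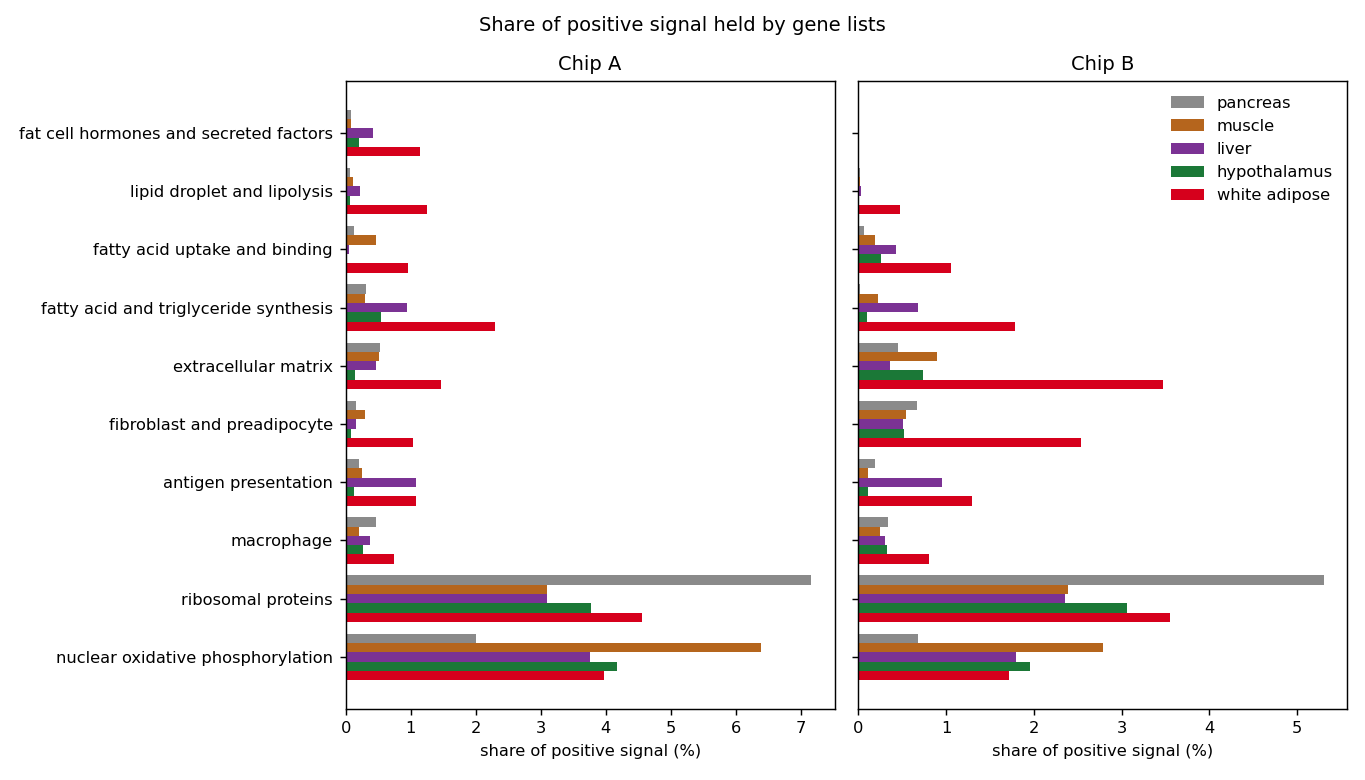
Share of positive signal, in percent from 0, held by the probe sets of 10 gene lists in each tissue, with chip A on the left and chip B on the right, 1 array a bar. On chip A white adipose has the longest bar for the 4 fat lists drawn (0.959% to 2.29%), the matrix (1.47%) and the fibroblast list (1.04%). Pancreas leads there for ribosomal proteins (7.16%) and muscle for oxidative phosphorylation (6.38%). On chip B the hormone list, with 2 probe sets, held less in white adipose (0.00325%) than in liver (0.00542%) or muscle (0.00414%), while the other fat lists drawn were longest in white adipose.

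Several genes outside these groups were also well above all other tissues. Slc1a5, a transporter of glutamine, read 12447 in white adipose, against 1506 in pancreas and 28 to 148 in the other 3 tissues, 8.26-fold. Cdkn2c, an inhibitor of cell cycle kinases, read 7027 and at most 955 elsewhere, at least 6.03-fold. Notch2, a receptor of cell signalling, was at least 6.65-fold higher in a probe set that read 7746, of the design that tolerates related sequence, but its partner with stricter probes read 2355 and was at least 2.02-fold higher. The other 2 Notch2 probe sets, at 224 and 469, were below noise in white adipose. Sncg, a synuclein known from nerve and fat, read 14117 with 2497 in hypothalamus, 5.65-fold. Pmp22, a membrane protein of nerve sheath and other cells, read 4779 with 1233 in muscle, 3.88-fold.

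Messages lowest in white adipose were looked for in the same way. A probe set was called lower where all 4 other tissues were above their bounds and the lowest of them was at least 2 times the higher of the white adipose value and its bound. Of 529 probe sets of chip A that could be compared this way, 3 were called (0.567%, or 0.046% of all probe sets), and of 257 on chip B also 3 (1.17%, or 0.0459% of all). White adipose was simply the lowest for 66 of the 529 (12.5%) and 37 of the 257 (14.4%), or 1.01% and 0.566% of all probe sets. Among the 517 probe sets of chip A above noise in all 5 tissues, white adipose was lowest for 63 and highest for 38, and among the 248 of chip B for 31 and 23. Of the 517, the others were lowest for 61 (muscle), 76 (pancreas), 147 (hypothalamus) and 170 (liver), and of the 248 for 46, 27, 71 and 73 in the same order.

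Tuba4a, an alpha tubulin, was the lowest by the widest margin. It read 238 in white adipose, below noise, against 3467 in liver, 3973 in pancreas, 5249 in hypothalamus and 11631 in muscle, at least 8.93-fold lower. White adipose thus lay apart from all other tissues for this message, whereas Tuba1a, a closely related tubulin read by a family-design probe set, was 12265 in white adipose and 11903 in hypothalamus. Tle5, a corepressor, read 1096 on chip B, against 5066 in liver, 6088 in pancreas, 7863 in hypothalamus and 15551 in muscle, 4.62-fold lower. Atp5g1, a subunit of the ATP synthase ring, read 2057 against 4535 in hypothalamus and 20714 in muscle, 2.20-fold lower. Mettl17, a mitochondrial methyltransferase-like gene, was at least 2.33-fold lower at 365, below noise. Fkbp4, a cochaperone of steroid receptors, read 1876 against 4168 in liver, 2.22-fold lower. The other lower call, on chip B, has no gene name here.

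Below the 2-fold line the lowest values included mitochondrial enzymes and general cell proteins, named here after their values were seen as those with the largest folds. Got2, the mitochondrial aspartate transaminase, read 2563, against 4751 in pancreas and 34651 in muscle, 1.85-fold below pancreas. Mt2, a metallothionein, read 1773, against 2889 in muscle and 13379 in pancreas. Ndufv1, a subunit of complex I, read 2021 with 2945 in pancreas, and the chaperonin subunit Cct5 1505 with 2017 in liver. Of 56 nuclear genes of oxidative phosphorylation measured, 47 were above noise, 6 were lowest in white adipose and 1 was called lower, while 3 were highest, Cox6a1, Cox8a and Ndufb7. Cox6a1 and Cox8a, subunits of cytochrome oxidase whose muscle forms are separate genes, read 12522 and 13320, against 728 and 2127 in muscle. The margin over other tissues was smaller, with Cox8a 1.19-fold above the 11208 of hypothalamus and Cox6a1 at 7606 in liver. Neither was called higher. Over all genes 1.17% were lowest in white adipose and 0.0815% were called lower, but most genes were below noise in some tissue, and of the probe sets that could be compared 12.5% and 14.4% were lowest.

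**Figure D5:**
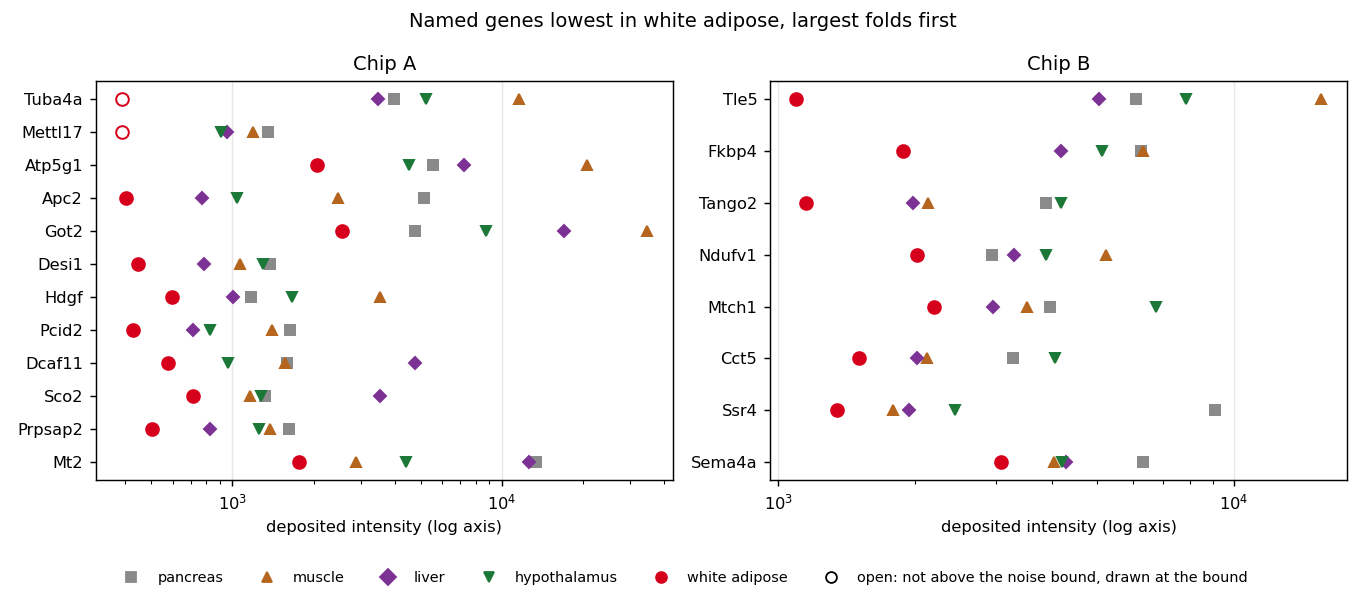
Deposited intensity on a log axis in the 5 tissues for the named genes lowest in white adipose, 12 on chip A and 8 on chip B, in order of fold, with 1 array behind each point and open symbols drawn at the noise bound. White adipose lies to the left of every other tissue, by the widest gap for Tuba4a on chip A (238, below noise) and Tle5 on chip B (1096).

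The low calls depended on the scaling of the pancreas arrays. Bacterial control RNA added before hybridisation was far brighter on them, with Cre at 50682 in pancreas and between 11797 and 16599 in the other tissues on chip A. With the arrays scaled by these controls, pancreas became the lowest tissue for 9 of the 12 genes shown of chip A and 6 of the 8 of chip B, Atp5g1, Mettl17 and Fkbp4 among them. Of the 56 oxidative phosphorylation genes, 0 were then lowest in white adipose. Ndufv1 was lowest in pancreas under this scaling and also with scaling by the 75th percentile. Tuba4a, Apc2 and Mt2 on chip A, and Tle5 and Ssr4 on chip B, were still lowest in white adipose. The Tle5 fold then was 1.14, with 2021.7 in white adipose and 2314.7 in pancreas, so that no lower call was left on chip B, and that of Tuba4a was at least 2.25. Of the 66 and 40 probe sets called higher, 59 and 37 were called again under this scaling. Common reference genes also varied, so they offer no fixed scale: Gapdh on chip B was 21396 in white adipose, 6373 in pancreas and 89219 in muscle, and Ppia 15944, 11843 and 5070. Probe sets of beta actin, Actb, went against each other. The brightest named one on chip A, of the family design, read 1122 in white adipose, 1297 in muscle and 7456 in hypothalamus, and the 3 prime control one read 17313, 32570 and 3811. The control one of the middle of the message read 14362, 6473 and 1722 in the same order, with white adipose the highest tissue.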

How the data were processed

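The submitters' labels give Trizol extraction of total RNA, 10 µg of it made into biotin-labelled cRNA, and Affymetrix steps after the maker's manual of 2001. The authors deposited intensity values, linear and in whole numbers, partly below 0. Their software, version and calls of presence were not given in the sources used here. Each array's mean after trimming 2% at each end, controls included, was 500.0, so the deposited values had been scaled to a common level and were used as they are. The 61 controls of a chip stayed out. Precision is limited by 1 array per tissue and chip, so no test was run.

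Probe sets were named from GEO's platform annotation, with symbols updated through RefSeq's table of GRCm38.p6. Probe sets with several genes or none have no name. Shares are of the sum of values above 0. A list's genes are read by 1 probe set each, whose mean log2 value ranks highest on its own chip. Its median is of the log2 difference from the mean of the other 4 tissues, values raised to their bounds. The calling rule was also run on simulated arrays with known changes, and the outcome is not given here. Python 3.11.15 with pandas 2.3.3 and numpy 2.4.6 was used.

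The rule for named genes took the 20 brightest named probe sets of chip A and 15 of chip B. Per chip it took the 20 largest folds called higher and up to 12 called lower. Only 3 named probe sets on chip A and 2 on chip B were called lower. The rule also took from each of 33 lists the 4 brightest genes and 3 largest folds, and 12 fixed genes. Bscl2, Cavin2, G0s2, Ccdc80, Plin2, Taldo1, Pcx, Dgat1, Elovl6, Col1a1, Got2, Cct5, Apc2, Ssr4, Pdgfra, Dpp4, Cks1b, Cdk1, Anxa1, Gas1 and Ndufb7 lie outside it and were picked once their values had been seen. The arrays, gene lists and rules were chosen with earlier results of these data known. Alternatives changed the scaling, the noise bound, the fold, the tissues compared and the probe sets kept.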

Additional observations from a re-analysis of the deposited data

Results flagged for a closer look

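Probe sets for pyruvate carboxylase stand among the control probe sets of each chip, which the comparisons above leave out. The one nearest the 3 prime end of the message read 11090 in white adipose on chip A, where the other tissues gave at most 2945, and 15107 on chip B, where they gave at most 6180, both in liver. They are given here because they are a signal outside the probe sets compared, above the level in the other tissues. The 2 probe sets of the middle of the message read 2624 and 5574 on chip A and 2310 and 6324 on chip B, and the dimmer of them read 2338 in pancreas on chip B. That of the 5 prime end read 1776 and 1639. The probe set of Pcx among the genes compared read 3807 in white adipose and 937 in liver.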

How the results depend on the processing

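Probe sets higher in white adipose, 66 on chip A and 40 on chip B, numbered 65 on chip B with scaling by the 75th percentile, 108 and 90 after quantile normalization, 87 on chip B with scaling by hybridisation spikes, 61 on chip B with the bound at the 2nd percentile, 43 on chip A at the 0.5th, and 166 and 182 with 1 floor per chip. Without the pancreas array chip B gave 75, a fold of 4 gave 20 and 12, a fold of 1.5 gave 109 and 72, and without probe sets of relaxed design 5 of 2066 and 0 of 1075 were left. Lower calls, 3 and 3, became 6 on chip A by the 75th percentile, 1 and 0 by spikes, 6 on chip A at the 2nd percentile, 13 and 25 with 1 floor, 12 on chip A without pancreas, 17 and 5 without muscle, 1 and 1 at a fold of 4, 16 and 6 at 1.5, and 1 and 0 without relaxed design. In 2 alternatives added after the data were seen, leaving out pancreas and muscle together gave 268 and 165 higher and 42 and 16 lower, and leaving out relaxed designs other than suffix _s gave 24 higher on chip B. Scaling by spikes reversed Atp5g1 (0.592), Mettl17 (0.768) and Fkbp4 (0.687), with pancreas then lowest. The cause of the other changes was not tested. Of the 66 and 40 higher calls, 64 and 36 were kept by the 75th percentile, 65 and 39 by quantile, 59 and 37 by spikes, and 43 and 33 at the 0.5th percentile. Among the 54 of them chosen by the rule for named genes none turned direction. Without relaxed designs the 10 brightest held 15% and 24.4%, the 100 brightest 47.4% and 62.7%, and the fat lists 4.11% and 0%. These are shares of the smaller sets left, of which 10 or 100 probe sets are a larger part. No fat list probe set with a value above 0 was left on chip B. The median log2 difference of all genes, -0.52, became -0.44 by the 75th percentile, 0.00 by quantile and 0.01 by spikes, and that of the fat lists minus it was 2.49, 2.49, 2.18 and 2.52. Mettl17 had no fold at the 0.5th percentile. No paired analysis was possible because each group is 1 array.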

Other observations

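Groups shared by all cells are given beside the shares of all named genes, 34.3% above noise and 4.3% highest in white adipose. Of 16 glycolysis genes measured 11 were above noise and 2 highest there, and Ldha, the lactate dehydrogenase of muscle and other tissues, read 16580 with 30100 in muscle. Of 17 genes of fatty acid oxidation 15 were above noise and 1 was highest, Abcd2, a transporter of peroxisomes known from fat, with 3310 against at most 227 elsewhere and a fold of at least 1.27. Hadh and Acadm, 2 enzymes of the pathway, read 6491 and 5080 and were higher in liver with 7083 and 8278. Of 21 translation factors 18 were above noise and 3 highest, and Pabpc1, which binds the tails of messages, was called higher with 11886 against 5694 in liver, 2.09-fold. Of 23 immediate early and heat shock genes 9 were above noise, with Jund, a transcription factor, the only one highest, at 8121 against 6099 in muscle. Haemoglobin messages were bright in white adipose, with Hba-a1 at 21484, and brighter in pancreas with 43690 and in muscle with 23878.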
